A study of Homo sapiens with 16 samples.

Results

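The proteasome is the protease that degrades ubiquitin-tagged proteins, and 48 genes for its subunits, assembly chaperones and activators were followed through the RNA-seq of 2 myeloma cell lines. The 48 were taken by symbol from a list of proteasome genes, not by a measured value. The list was nevertheless chosen with earlier results of these data known. Every one of the 48 was found among the 23354 genes of the read count table. They comprise 32 constitutive subunits, 5 interferon-inducible genes and 11 others, and all 48 passed the filter on low counts, which left 14215 genes for testing. The 32 are the 7 genes of the alpha ring (PSMA1 to PSMA7), the 4 structural and 3 catalytic genes of the beta ring (PSMB1 to PSMB4 and PSMB5 to PSMB7), and the 6 ATPases and 12 other subunits of the 19S cap. The 5 inducible genes are PSMB8, PSMB9, PSMB10, PSME1 and PSME2. The other 11 are 3 chaperones of 19S assembly (PSMD5, PSMD9, PSMD10), 5 of 20S assembly (POMP, PSMG1 to PSMG4), the activators PSME3 and PSME4, and the inhibitor PSMF1.

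MM1S and MM1R are human multiple myeloma cell lines of common origin, glucocorticoid sensitive and glucocorticoid resistant respectively. Each line received vehicle, 0.1 μM TAK-981, an inhibitor of the SUMO-activating enzyme E1, 1 μM dexamethasone (Dex), a synthetic glucocorticoid, or both together (combo). RNA was taken after 48 h, and 2 libraries were sequenced for each of the 8 groups, 16 in all. Sensitivity and resistance are each represented by a single line, and the sources do not say whether the duplicates came from separate cultures, so p-values measure only the spread between these libraries.

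In the 20S core, PSMB5, PSMB6 and PSMB7 carry the chymotrypsin-like, caspase-like and trypsin-like activities. Interferon induces PSMB8, PSMB9 and PSMB10, which take their places in newly assembled particles to form the immunoproteasome, and PSME1 and PSME2, the 2 chains of the PA28 activator, a cap that favours production of peptides for MHC class I. The 19S cap recognises, deubiquitinates and unfolds substrates. Plasma cells and myeloma cells make immunoglobulin in bulk, carry a heavy proteasome load and are treated with proteasome inhibitors.

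Promoter sequences of the inducible genes are shown first, because a motif of the interferon response occurs in most of them. RefSeq windows (GRCh38.p14) of 300 bases, 250 before to 50 after a gene's start, were found for 42 of the 48 genes. The core of the interferon-stimulated response element, GAAA, any 2 bases and GAAA again, read on both strands, occurred in 3.57% of the 35116 windows of all genes. It occurred in 4 of the 5 inducible genes (PSMB8, PSMB10, PSME1, PSME2) and in 2 of the 27 constitutive subunits with a window (PSMA4 and PSMB4), and in the chaperone gene PSMG4. PSMB9 had no such match in its window, and a missing match says only that these letters are not there. The 4 matches with 30 bases on either side follow, on the gene's own strand, with the motif in capitals.
PSMB8: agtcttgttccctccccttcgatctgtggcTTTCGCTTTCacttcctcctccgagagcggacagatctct
PSMB10: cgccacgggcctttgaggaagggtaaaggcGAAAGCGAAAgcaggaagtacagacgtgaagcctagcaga
PSME1: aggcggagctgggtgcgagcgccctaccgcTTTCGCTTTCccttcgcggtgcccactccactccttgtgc
PSME2: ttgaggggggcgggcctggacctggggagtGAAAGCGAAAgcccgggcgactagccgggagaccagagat
They lie at chr6:32844012-32844081 (minus strand), chr16:67936832-67936901 (minus), chr14:24136169-24136238 (plus) and chr14:24146599-24146668 (minus). The inner bases are the same in all 4, GAAAGCGAAA or its reverse complement. The match in PSMG4, which is not an inducible gene, has these same bases, so they are not particular to the inducible genes. Whether the motif bears on the responses below was not tested.

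Other motifs were searched in the same windows. The core of the antioxidant response element, TGACNNNGC on both strands, was in 16 of the 42 members with a window against 13.3% of all windows, and the CCAAT box in 20 of 42 against 34.6%. The gamma-activated site TTCNNNGAA, which reads the same on both strands, was in 7 of 42 against 7.66%. A gene was counted if any of its windows held the motif, and 9 of the 42 have more than 1 window, which gives a gene more chances of a match than a single window has. A further 3 windows are shown from genes that carry the results further on: the antioxidant motif of PSMB9 and of PSMG1, the member with the largest fall under TAK-981, and the CCAAT box of PSMD14, whose fall was largest under combo in MM1S.
PSMB9: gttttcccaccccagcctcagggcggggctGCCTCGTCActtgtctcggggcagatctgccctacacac
PSMG1: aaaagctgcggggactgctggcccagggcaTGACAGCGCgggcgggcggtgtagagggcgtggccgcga
PSMD14: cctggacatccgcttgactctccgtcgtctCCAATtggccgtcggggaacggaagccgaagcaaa
They lie at chr6:32854014-32854082 (plus), chr21:39183596-39183664 (minus) and chr2:161308347-161308411 (plus). A motif here is a match of letters, not a site shown to be bound.

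Total counts ran from 15707587 to 24796539 per library (median 20268927), and the 48 genes held 0.332% to 0.57% of them. Levels are given as CPM, counts scaled to library size after TMM normalisation, so each is relative to the rest of the library. A change in cell number or in total RNA per cell does not show in them. Duplicates differed beyond counting error in every group. Chi-square divided by its degrees of freedom was 22.6 for TAK-981 and 20.4 for Dex in MM1S, and 2.15 to 9.66 in the other groups. As a check on the labels, NR3C1, which encodes the glucocorticoid receptor, was at 277 to 283 CPM in vehicle-treated MM1S and 17.9 to 19.9 CPM in vehicle-treated MM1R. The plasma cell marker SDC1 was at 495 CPM or more in all 16 libraries, and of 8 such markers CD27 alone did not pass the filter on low counts. Of 16 markers of B cells, T cells, monocytes, erythroid, stromal and epithelial cells, 13 did not pass and were at 0.577 CPM or less, CD3D and HBA2 at 0. The 3 that passed were CD3E (0.372 to 5.33 CPM), HBB (1.3 to 12.4 CPM) and COL1A1 (0.05 to 1.81 CPM). CD3E was lower with TAK-981, with 1.76 and 2.11 CPM against 3.05 and 3.13 CPM in MM1S, and lowest with combo there (0.372 and 0.77 CPM). All libraries are of cultured myeloma lines, and the source of these few reads was not tested.

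The first question was how SUMO inhibition altered the proteasome in each line. Under TAK-981 alone PSMB8 and PSMB9 rose in both lines, while every constitutive subunit had a negative log2 fold change in both. PSMB8 replaces PSMB5 and lies on chromosome 6 from 32808494 to 32812712 (hg19, minus strand). In MM1S it was at 41.1 and 40.1 CPM with vehicle and at 52.5 and 67.5 CPM with TAK-981. In MM1R it went from 46.4 and 49.9 CPM to 66.8 and 69.2 CPM. Treated libraries lay above untreated ones in both lines, and those of MM1S were the further apart.

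In MM1S the log2 fold change of PSMB8 was 0.56, with a standard error (SE) of 0.13 and an edgeR adjusted p of 0.00244. In MM1R it was 0.50 (SE 0.13, edgeR adjusted p = 0.00435). Without the second TAK-981 library of MM1S the value there was 0.37 with an edgeR adjusted p of 0.0554. PSMB8-AS1, annotated on the opposite strand, overlaps PSMB8 over 850 bases and rose too, from 9.63 and 9.48 CPM to 18.3 and 15.3 CPM in MM1S and from 10.8 and 10.6 CPM to 20.9 and 21.4 CPM in MM1R. Since no source states whether counting used strand, reads of the 2 genes over the shared bases cannot be told apart.

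PSMB9, which replaces PSMB6, lies in the same region (chromosome 6, 32821938 to 32827628, hg19, plus strand). It was at 27.6 and 29 CPM with vehicle and at 38.1 and 45.9 CPM with TAK-981 in MM1S. In MM1R it went from 33.4 and 32.3 CPM to 52.4 and 53.7 CPM. The groups did not overlap in either line, and the 2 values in treated MM1R were the closer. Its log2 fold change was 0.57 in MM1S (SE 0.10, edgeR adjusted p = 0.000171) and 0.69 in MM1R (SE 0.10, edgeR adjusted p = 1.37e-05), a rise of 1.48-fold and 1.62-fold.

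The third catalytic replacement, PSMB10, did not pass the test. It was at 58.9 and 63.3 CPM with vehicle against 59 and 76.5 CPM with TAK-981 in MM1S, and at 56.1 and 63.5 CPM against 59.9 and 62.6 CPM in MM1R. The ranges overlapped in both lines, and the log2 fold changes were 0.15 (edgeR adjusted p = 0.285) and 0.03 (edgeR adjusted p = 0.815).

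The PA28 pair split. PSME1 rose in MM1S, from 81.3 and 85.5 CPM to 93.1 and 103 CPM, where its log2 fold change was 0.24 (SE 0.074, edgeR adjusted p = 0.0126). In MM1R it was at 87.5 and 87 CPM with vehicle and 93.5 and 96.6 CPM with TAK-981 (log2 fold change 0.12, edgeR adjusted p = 0.162). PSME2 moved the other way, from 48.4 and 49.3 CPM to 40.4 and 43 CPM in MM1S, where its log2 fold change was −0.23 (SE 0.09, edgeR adjusted p = 0.0444). In MM1R it was at 60.2 and 66 CPM with vehicle and 54.6 and 58.7 CPM with TAK-981 (log2 fold change −0.16, edgeR adjusted p = 0.14). Fitted to only the groups compared, neither gene passed in MM1S (edgeR adjusted p = 0.0986 and 0.0627) and both did in MM1R (0.00404 and 0.0102).

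**Figure D1:**
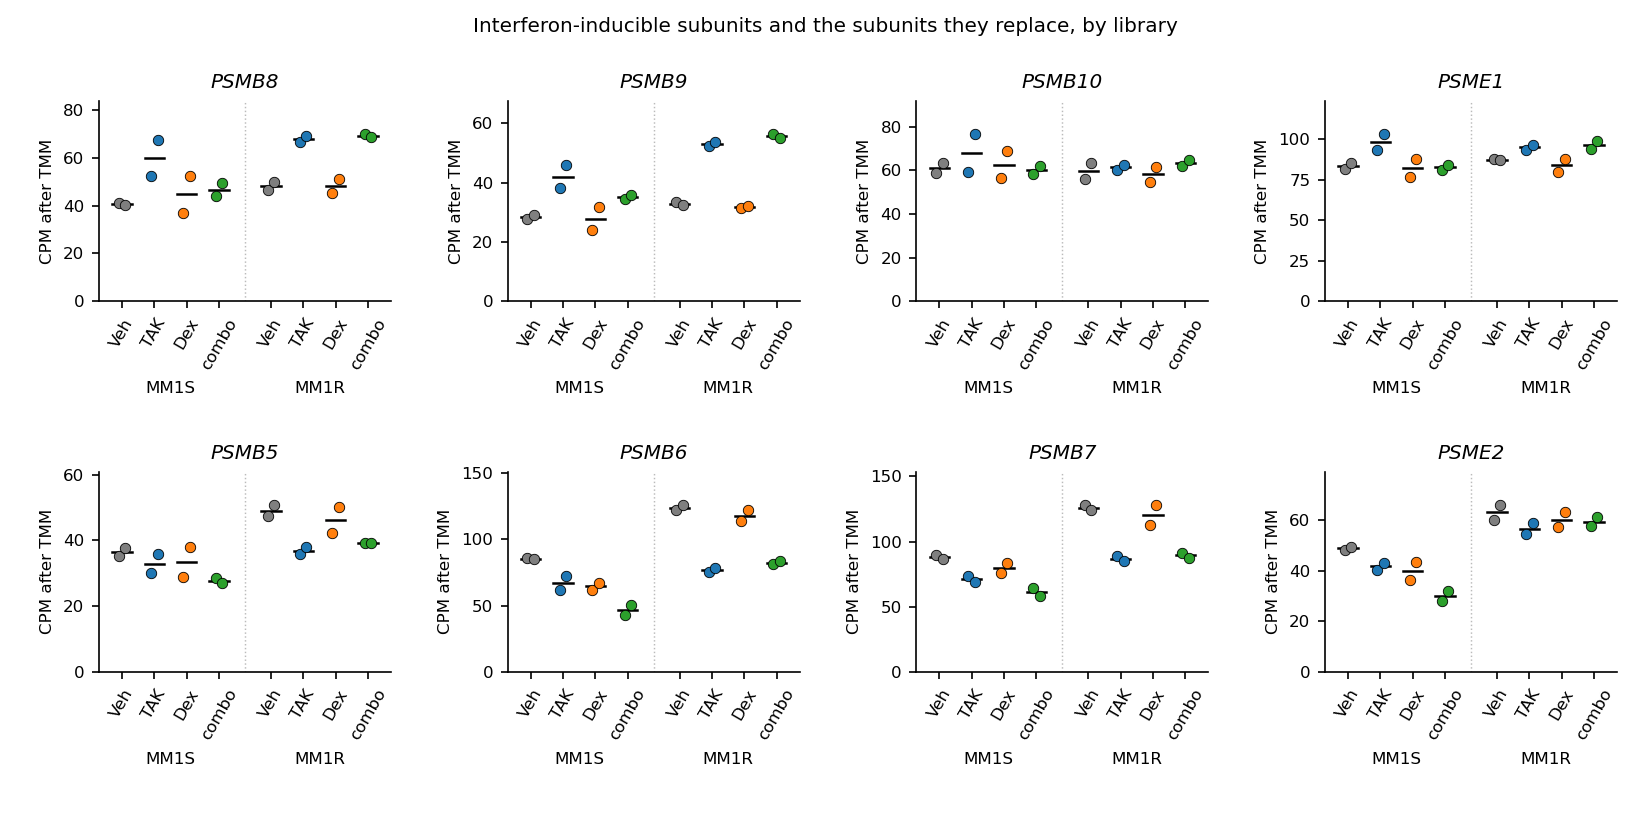
CPM after TMM (vertical axis, from 0) of the 5 interferon-inducible genes and the 3 catalytic subunits they face, with each library a point, each bar a group mean and the 4 treatments of each line along the horizontal axis. PSMB8 and PSMB9 are higher with TAK-981 in both lines, while PSMB6 and PSMB7 are lower and PSMB10 overlaps.

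The constitutive partners of these genes went down. PSMB6 fell in MM1S from 85.9 and 85.3 CPM to 61.5 and 72.6 CPM (log2 fold change −0.35, SE 0.08, edgeR adjusted p = 0.00132). In MM1R it fell from 122 and 126 CPM to 75.2 and 78.2 CPM (log2 fold change −0.69, SE 0.078, edgeR adjusted p = 7.49e-07). PSMB7 fell in MM1S from 89.8 and 86.7 CPM to 73.3 and 69.1 CPM, and in MM1R from 128 and 124 CPM to 89.1 and 84.7 CPM. Its log2 fold changes were −0.31 and −0.54 (edgeR adjusted p = 0.00157 and 4.21e-06). In all 4 of these cases the treated libraries lay below both vehicle libraries. PSMB5 was at 35.2 and 37.8 CPM with vehicle and at 30.1 and 35.8 CPM with TAK-981 in MM1S, where the ranges overlapped (log2 fold change −0.15, edgeR adjusted p = 0.301). In MM1R it fell from 47.4 and 50.8 CPM to 36 and 37.9 CPM (log2 fold change −0.41, edgeR adjusted p = 0.00423).

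Ratios within a library remove the scaling between libraries and the length of each gene when libraries are compared. PSMB9 counts were 32.2% and 34% of PSMB6 counts in the vehicle libraries of MM1S and 62% and 63.1% in its TAK-981 libraries. In MM1R they were 27.4% and 25.6% with vehicle and 69.7% and 68.7% with TAK-981. The PSMB8 to PSMB5 ratio of counts was 1.11 ± 0.0737 (SD, n = 2) with vehicle and 1.81 ± 0.101 (SD, n = 2) with TAK-981 in MM1S. In MM1R it was 0.981 ± 0.00218 (SD, n = 2) and 1.84 ± 0.0199 (SD, n = 2). Whether the lines differed in this ratio, with vehicle or with TAK-981, was not tested. PSMB10 counts were 65.6% and 73% of PSMB7 counts with vehicle and 80.4% and 111% with TAK-981 in MM1S, and 43.8% and 51.1% against 67.2% and 73.8% in MM1R. Of this pair PSMB7 fell in both lines, while PSMB10 passed in neither.

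Over all 16 libraries, those with TAK-981 had a PSMB9 to PSMB6 ratio 2.16-fold higher than those without, a PSMB8 to PSMB5 ratio 1.6-fold higher and a PSMB10 to PSMB7 ratio 1.39-fold higher. Each had p = 0.00154 in an exact two-sided permutation test within line and Dex state. The value was the same after Benjamini-Hochberg adjustment over the 3 ratios, and it is the smallest that the 1296 arrangements can give. The effect was positive in each of the 4 strata. Its log2 size for PSMB9 to PSMB6 was 0.92 and 0.81 in MM1S, without and with Dex, and 1.39 and 1.32 in MM1R. Within 1 line the smallest p the design allows is 0.0556, which each ratio reached in each line. The ratios use the same counts as the single genes above, so their p-values are not separate evidence. Other pairs of genes were not set beside these.

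**Figure D2:**
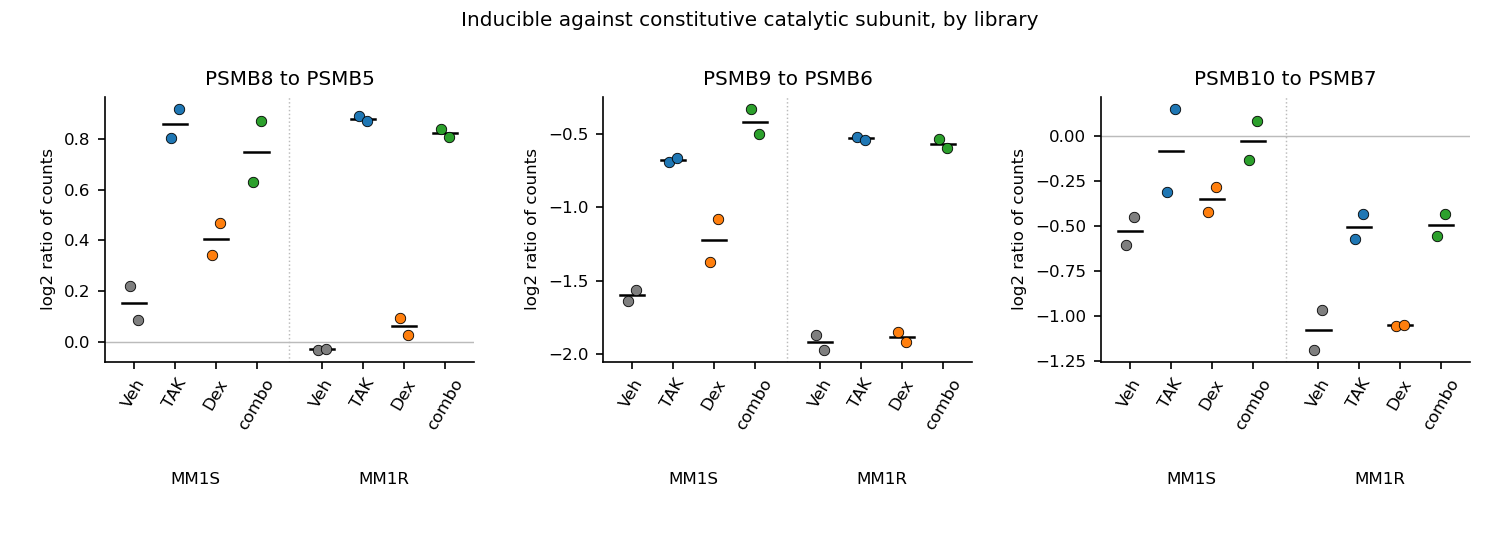
Log2 ratio of counts (vertical axis) of each inducible catalytic subunit to the constitutive one it replaces, with each library a point, bars at group means and a grey line at 0, the point of equal counts. The TAK and combo libraries lie above the Veh and Dex libraries of the same line in every panel, except that for PSMB10 to PSMB7 in MM1S a TAK library lies just below a Dex library (80.4% against 82.1%).

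Length matters when 2 genes are compared in level. Per kb of the length given in the table, PSMB9 was at 17.1 ± 0.569 CPM per kb and PSMB6 at 98.8 ± 0.481 CPM per kb in vehicle-treated MM1S (SD, n = 2). The table's length for PSMB9 is 2.12 times that of its principal GENCODE transcript and that for PSMB6 1.02 times, and a longer length gives a lower level per kb.

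The wider set of subunits fell together. In MM1S 25 of the 48 genes were lower with TAK-981 (52.1%, against 23.7% of all genes tested) and 4 were higher (8.33%, against 25.2%). In MM1R 38 were lower (79.2%, against 27.6%) and 3 higher (6.25%, against 25.8%). Among the 32 constitutive subunits 19 were lower in MM1S and 30 in MM1R, and 0 were higher in either line by edgeR at an adjusted p under 0.05. All 32 edgeR log2 fold changes were negative in both lines, so 0 were higher at an unadjusted p under 0.05 as well. Without the first vehicle library of MM1S, 18 of the 48 passed there instead of 29. With all libraries the median log2 fold change of the 32 constitutive subunits was −0.23 in MM1S and −0.41 in MM1R, beside 0.04 and 0.00 over all genes tested.

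By role, 5 of the 7 alpha ring genes fell in MM1S and 6 of 7 in MM1R, with medians of −0.28 and −0.39. The 4 structural beta genes had medians of −0.16, with 1 called, and −0.41, with all 4 called. The 6 ATPases, which unfold substrates and feed them into the core, had 4 and 5 members lower, and the 12 other subunits of the cap 7 and 12. The subunits not called in MM1S were PSMA4, PSMA6, PSMB1, PSMB3, PSMB4, PSMB5, PSMC1, PSMC6, PSMD4, PSMD6, PSMD8, PSMD13 and ADRM1. In MM1R only PSMA6 and PSMC1 were not called. These 2 genes had almost no counts here, which is taken up at the end.

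PSMD14, the deubiquitinase of the 19S lid, fell from 99.2 and 100 CPM to 65.6 and 65.9 CPM in MM1S and from 150 and 158 CPM to 98.5 and 99.2 CPM in MM1R. The duplicates were close and the groups well apart. The log2 fold change was −0.60 in MM1S (SE 0.069, edgeR adjusted p = 8.33e-07) and −0.64 in MM1R (SE 0.066, edgeR adjusted p = 2.59e-07). PSMC3, an ATPase of the ring at the base of the cap, fell from 91.6 and 94.3 CPM to 65 and 68.5 CPM in MM1S and from 123 and 124 CPM to 77.3 and 78.9 CPM in MM1R, with log2 fold changes of −0.48 and −0.66 (edgeR adjusted p = 4.77e-06 and 6.62e-08).

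Assembly genes took part. PSMG1, a chaperone of the alpha ring, had the largest fall of the 48 in both lines, from 48.7 and 48.2 CPM to 28.7 and 26.1 CPM in MM1S and from 67.2 and 65.1 CPM to 36.5 and 32.5 CPM in MM1R. That is 0.565 of the vehicle level in MM1S (log2 fold change −0.82, SE 0.076, edgeR adjusted p = 4.97e-08) and 0.52 in MM1R (log2 fold change −0.94, SE 0.073, edgeR adjusted p = 6.05e-09). Of the 5 genes of 20S assembly 4 fell in MM1S, all but PSMG3, and all 5 in MM1R. POMP, the maturation factor of the core, had log2 fold changes of −0.38 and −0.47. Of the 3 chaperones of the 19S cap only PSMD10 was called, lower in both lines (log2 fold changes −0.37 and −0.41). PSMD5 had values of 0.03 and −0.11 and PSMD9 of 0.16 and −0.21, which did not pass.

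The alternative caps went different ways. PSME4, which encodes the PA200 activator, rose from 251 and 252 CPM to 299 and 280 CPM in MM1S and from 267 and 266 CPM to 305 and 300 CPM in MM1R (log2 fold changes 0.20 and 0.18, edgeR adjusted p = 0.00614 and 0.011). The call was lost in MM1S when only the groups compared were fitted (edgeR adjusted p = 0.126), and without its first TAK-981 library (0.0596). In MM1R it was lost without either vehicle library (0.059 and 0.0675) or the first TAK-981 library (0.0745). PSME3, the nuclear PA28 gamma, fell in MM1R from 264 and 273 CPM to 207 and 211 CPM (log2 fold change −0.36, edgeR adjusted p = 0.000133), against −0.07 in MM1S. PSMF1, an inhibitor of the core, fell in MM1R (log2 fold change −0.15) and had 0.02 in MM1S.

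**Figure D3:**
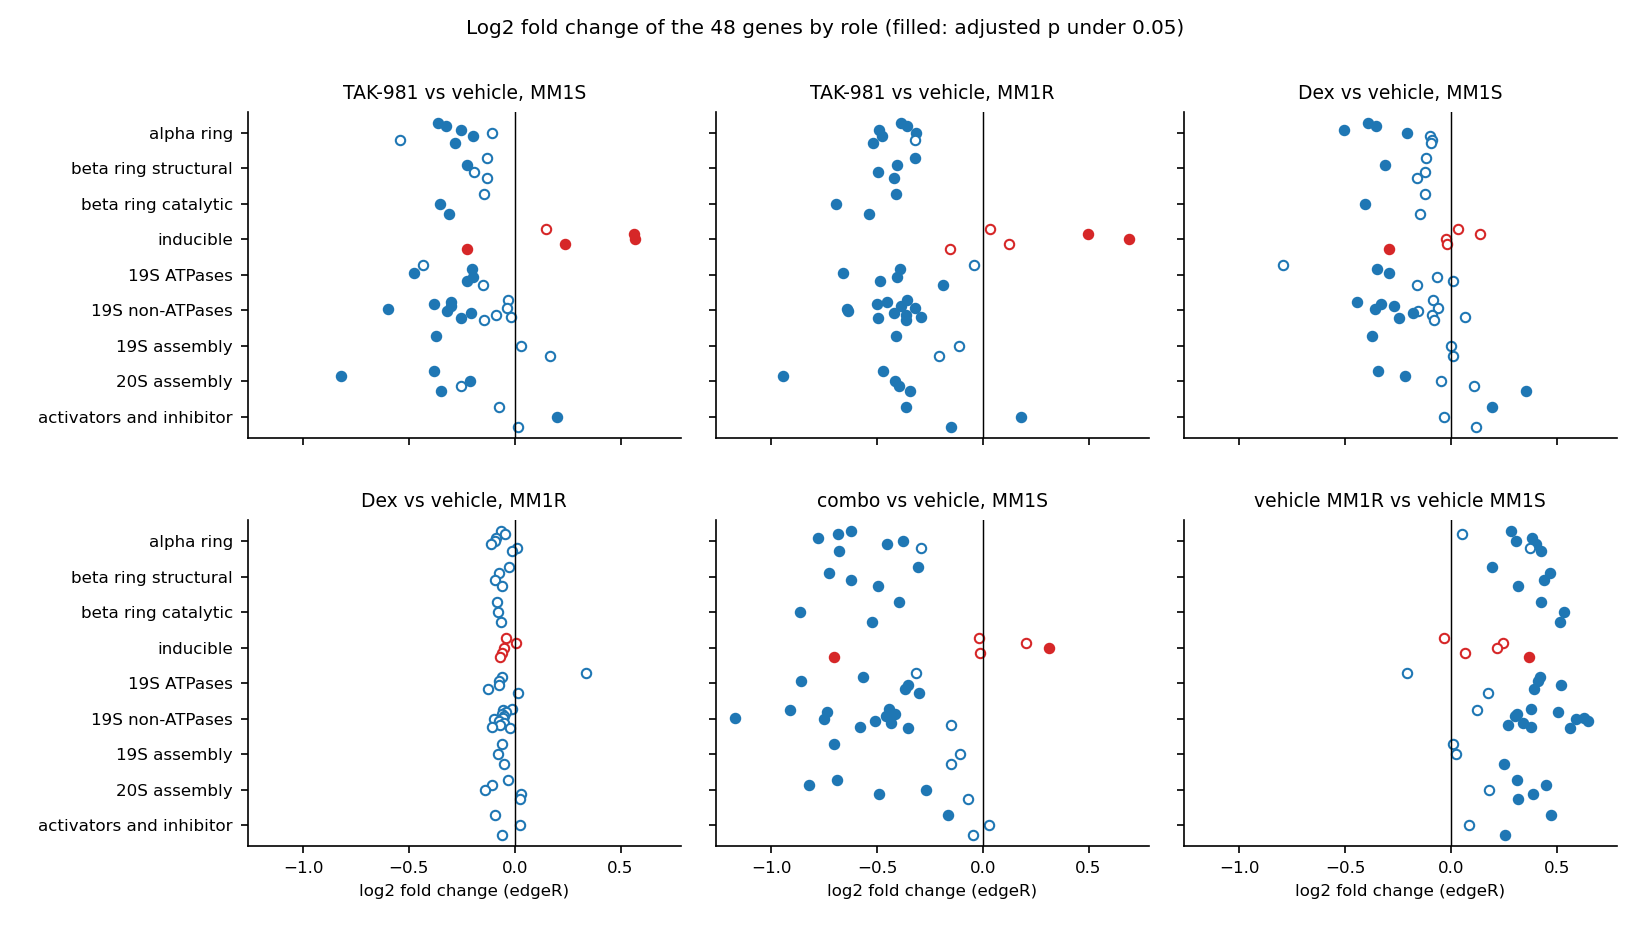
Log2 fold change (horizontal axis, edgeR) of each of the 48 genes, grouped by role on the vertical axis, in 6 comparisons, with inducible genes in red and filled points where the adjusted p was under 0.05. Constitutive subunits lie left of 0 under TAK-981 in both lines and under combo in MM1S, and mostly just left of 0 under Dex in MM1R. They lie mostly right of 0 in MM1R against MM1S with vehicle.

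Across the 48 genes, the response to TAK-981 in MM1S and that in MM1R, which share no library, had a Pearson r of 0.851 and a Spearman rho of 0.667. This is a description across genes, which are not independent replicates. It was 0.75 and 0.768 over all genes tested, and 0.362 and 0.481 over the 32 constitutive subunits alone. Those 32 include PSMA6 and PSMC1, which had almost no counts, so 0.362 and 0.481 are not read as poor agreement between the lines. The log2 fold change was lower in MM1R for 30 of the 32 constitutive subunits, all but PSMA6 and PSMC1. Tested directly, the difference between lines in the TAK-981 effect passed for 0 of the 48 genes by edgeR and for 0 by DESeq2, where edgeR called 3.19% of all genes higher and 0.978% lower. A replicate block adds a term for replicate number within each line, though no label says that it marks a batch. With it 1114 of all genes were higher and 947 lower, and some of the 48 passed, as counted at the end. Without the block the median difference was −0.19. The count of 0 depended on which libraries were kept, as given at the end.

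**Figure D4:**
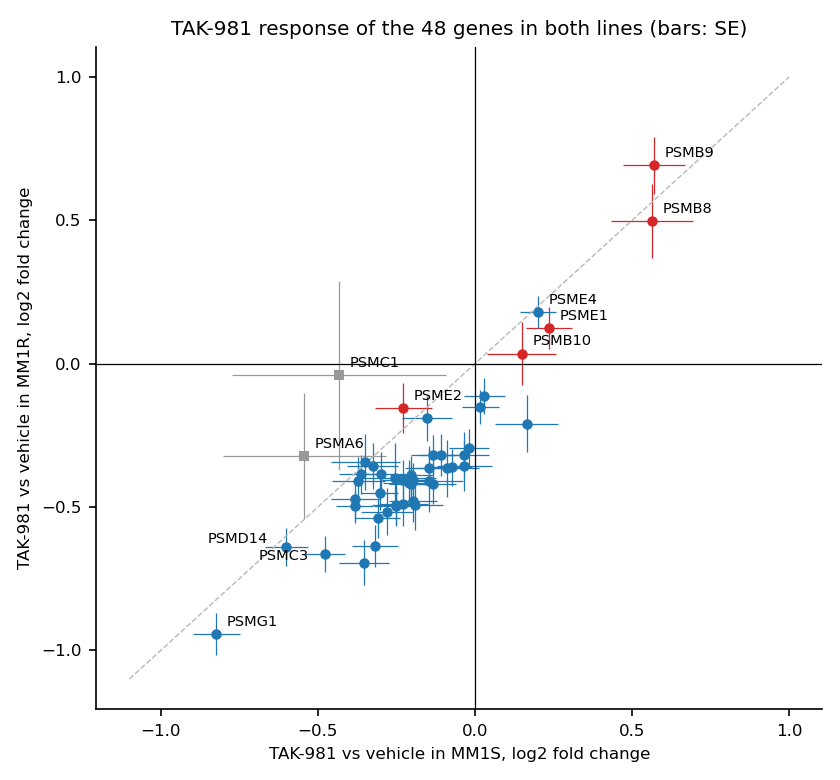
Log2 fold change with TAK-981 in MM1S (horizontal axis) and in MM1R (vertical axis) for the 48 genes, with standard errors as bars, the dashed line at equal change, inducible genes in red, and PSMA6 and PSMC1, which had few counts, as grey squares. PSMB8 and PSMB9 lie at the upper right and most other genes lie below both 0 and the dashed line.

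The second question was whether Dex acted on the same genes. In MM1S 18 of the 48 were lower with Dex (37.5%, against 21.5% of all genes tested) and 2 higher (4.17%, against 20.8%). The constitutive subunits had 14 lower, 0 higher and a median log2 fold change of −0.16. Of the 5 inducible genes 1 was called, PSME2, at 36.4 and 43.3 CPM with Dex against 48.4 and 49.3 CPM with vehicle (log2 fold change −0.29, edgeR adjusted p = 0.0143). PSMB8 was at 36.8 and 52.6 CPM with Dex, on either side of its vehicle values, and PSMB9 at 24 and 31.7 CPM.

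The 3 lower members with the smallest adjusted p were PSMD1, PSMA3 and PSMA1. PSMD1, a scaffold at the base of the cap, went from 146 and 142 CPM to 102 and 110 CPM (log2 fold change −0.44, SE 0.059, edgeR adjusted p = 7.8e-06). PSMA3 of the alpha ring went from 56.4 and 55.3 CPM to 37.3 and 41.4 CPM (log2 fold change −0.51, SE 0.077, edgeR adjusted p = 3.42e-05). PSMA1, of the same ring, went from 178 and 165 CPM to 134 and 127 CPM (log2 fold change −0.39, SE 0.069, edgeR adjusted p = 0.000156). In all 3 the Dex libraries lay below both vehicle libraries.

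PSMB6 was the one catalytic subunit to fall with Dex, to 61.9 and 67.2 CPM (log2 fold change −0.41, edgeR adjusted p = 0.000468). The 2 genes that rose were PSMG4, a small chaperone of alpha ring assembly, from 13.6 and 12.5 CPM to 18.1 and 15.2 CPM (log2 fold change 0.35, edgeR adjusted p = 0.00774), and PSME3, from 196 and 191 CPM to 213 and 230 CPM (log2 fold change 0.19, edgeR adjusted p = 0.0228). PSME3 did not pass when only the groups compared were fitted (edgeR adjusted p = 0.0622). The Dex duplicates of MM1S differed across the set: the second library was the higher for 38 of the 46 genes other than PSMA6 and PSMC1. Without it the median of the constitutive subunits was −0.25.

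In MM1R 0 of the 48 genes passed with Dex by edgeR and 0 by DESeq2, and 0 had an unadjusted p under 0.05, where 395 of all genes tested did. With RLE scaling, or library size only, in place of TMM, 0 of all genes tested were called higher and 0 lower. A count of 0 is therefore not particular to the 48. The median log2 fold change of the constitutive subunits was −0.06. As an example, PSMD14 was at 141 and 156 CPM with Dex, beside 150 and 158 CPM with vehicle. The second Dex library was again the higher, for 43 of 46 genes.

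The difference between lines in the Dex effect was tested directly. It passed for 10 genes, 9 with a higher value in MM1R (18.8%, against 15% of all genes) and 1 with a lower value (2.08%, against 13.1%). The 9 were PSMA1, PSMA2, PSMA3, PSMB6, PSMC2, PSMD1, PSMD11, PSMD14 and POMP, with differences from 0.29 to 0.42 on the log2 scale. The 1 was PSME3. A share of 18.8% is near that of all genes, and DESeq2 called 8. Without the first vehicle library of MM1S 2 genes passed.

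The third question was what the combination added. In MM1S combo lowered 36 of the 48 genes against vehicle (75%, against 29.5% of all genes tested) and raised 1 (2.08%, against 30.8%). The constitutive subunits had 29 lower, 0 higher and a median log2 fold change of −0.50, the lowest of the comparisons made. The 3 not called were PSMA6, PSMC1 and PSMD6.

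PSMD14 went from 99.2 and 100 CPM to 45.5 and 43.3 CPM, 0.445 of the vehicle level (log2 fold change −1.17, SE 0.071, edgeR adjusted p = 6.59e-11), and was the one gene to fall by more than 1 on the log2 scale in any comparison with vehicle. PSMD1 was at 75.4 and 77.8 CPM under combo (log2 fold change −0.91, SE 0.061, edgeR adjusted p = 2.48e-10). PSMC3 was at 50.4 and 52 CPM (log2 fold change −0.86, SE 0.065, edgeR adjusted p = 1.44e-09). For each of these genes the combo libraries were the lowest of the 8 in MM1S.

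The catalytic subunits fell as well: PSMB6 to 43.3 and 50.7 CPM (log2 fold change −0.86), PSMB7 to 64.2 and 58.6 CPM (−0.53 on the log2 scale), and PSMB5 to 28.5 and 27 CPM (−0.40 on the log2 scale, edgeR adjusted p = 0.00673). The inducible genes did not share one direction. PSMB9 was at 34.4 and 35.8 CPM, above vehicle (log2 fold change 0.31, edgeR adjusted p = 0.0169), but the adjusted p was 0.105 without the first vehicle library and 0.0965 without the second combo library. PSMB8 was at 44.1 and 49.3 CPM (log2 fold change 0.20, edgeR adjusted p = 0.214), and PSMB10 and PSME1 had log2 fold changes of −0.02 and −0.01. PSME2 fell to 27.9 and 32.1 CPM, 0.615 of the vehicle level (log2 fold change −0.70, SE 0.094, edgeR adjusted p = 3.47e-06).

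Set against TAK-981 alone, combo in MM1S lowered 29 of the 48 genes (60.4%, against 20.6% of all genes) and raised 0, where 14.5% of all genes were higher. This set held 22 constitutive subunits and 3 inducible genes. The 3 were PSMB8 (log2 fold change −0.36, edgeR adjusted p = 0.0474), PSME1 (−0.25, edgeR adjusted p = 0.013) and PSME2 (−0.47, edgeR adjusted p = 0.000725). PSMB9 was at −0.26 (edgeR adjusted p = 0.0605). With RLE scaling PSMB8 had an edgeR adjusted p of 0.0509, with library size only 0.0651, and with single libraries left out 0.429 (second TAK-981), 0.241 (first combo) and 0.0709 (second combo). When only the 2 groups were fitted, 15 of the 48 genes were lower. Over all genes tested 1869 were then lower, against 2927 in the main fit.

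Set against Dex alone, combo lowered 35 genes in MM1S (72.9%, against 25.4%) and raised 1, PSMB9 (2.08%, against 22.2%). In MM1R it lowered 36 (75%, against 25.3%) and raised 3 (6.25%, against 23.1%), which were PSMB8, PSMB9 and PSME1. Without the second Dex library of MM1R, 25 genes passed there instead of 39.

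In MM1R combo against vehicle lowered 38 genes (79.2%, against 26.7% of all genes) and raised 3 (6.25%, against 24.8%). The median of the constitutive subunits was −0.36, with 30 called. PSMB9 was at 56.3 and 55 CPM (log2 fold change 0.76, SE 0.099, edgeR adjusted p = 4.51e-06) and PSMB8 at 69.9 and 68.7 CPM (log2 fold change 0.53, edgeR adjusted p = 0.00301). PSMB10, PSME1 and PSME2 had log2 fold changes of 0.08, 0.14 and −0.09 and did not pass. PSME4 was the third gene higher (log2 fold change 0.14, edgeR adjusted p = 0.0377), but not with library size only (0.0563) with no filter on low counts (0.118), or with any 1 vehicle or combo library left out (0.13 to 0.146).

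PSMG1 was at 33.1 and 35.6 CPM (log2 fold change −0.94, edgeR adjusted p = 5.61e-09), PSMC3 at 79.9 and 79.2 CPM (−0.64, edgeR adjusted p = 1.08e-07) and PSMD14 at 98.5 and 110 CPM (−0.56, edgeR adjusted p = 1.27e-06). PSMB5, PSMB6 and PSMB7 had log2 fold changes of −0.33, −0.59 and −0.50. Against TAK-981 alone, combo in MM1R changed 0 of the 48 genes by edgeR and by DESeq2, with 0 at an unadjusted p under 0.05, where 214 of all genes tested had one. With RLE scaling, or library size only, 0 of all genes tested were called higher and 0 lower.

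Whether TAK-981 and Dex together departed from the sum of their single effects on the log2 scale was tested as an interaction. In MM1S it passed for 2 genes, both lower than the sum (4.17%, against 9.48% of all genes), and for 0 higher (5.47% of all genes). With the replicate block 1383 of all genes were higher and 2196 lower, and more members passed, as counted at the end. With library size only in place of TMM the split over all genes moved from 777 higher and 1348 lower to 1033 higher and 908 lower, and 0 members passed. The number of members passing also changed with single libraries left out, as given at the end. The 2 genes were PSMD13, a subunit of the lid, and PSME3. PSMD13 was at 111 and 108 CPM with vehicle, 98.2 and 116 CPM with TAK-981, 97.3 and 113 CPM with Dex, and 83 and 76.8 CPM with combo. The 3 other groups overlapped and combo lay below them all, with an interaction of −0.36 (SE 0.12, edgeR adjusted p = 0.0441). PSME3 was at 165 and 180 CPM with combo, with an interaction of −0.28 (SE 0.092, edgeR adjusted p = 0.0466). In MM1R the interaction passed for 0 of the 48 genes by edgeR and by DESeq2, with 0 of the 48 at an unadjusted p under 0.05 and 400 of all genes. With RLE scaling, or library size only, 0 of all genes tested were called higher and 0 lower.

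The last comparison was between the lines with vehicle. In MM1R 35 of the 48 genes were higher than in MM1S (72.9%, against 25.6% of all genes tested) and 0 lower (22.6% of all genes). The constitutive subunits had 27 higher and a median log2 difference of 0.39, beside 0.01 over all genes. The leading 3 by adjusted p belonged to the 19S cap. PSMD14 was at 150 and 158 CPM in MM1R and 99.2 and 100 CPM in MM1S (log2 difference 0.63, SE 0.066, edgeR adjusted p = 4.9e-07). PSMD3 of the lid was at 225 and 237 CPM against 144 and 151 CPM (log2 difference 0.65, SE 0.069, edgeR adjusted p = 5.29e-07), and PSMD11, also of the lid, at 254 and 260 CPM against 183 and 179 CPM (log2 difference 0.51, SE 0.058, edgeR adjusted p = 1.47e-06). The MM1R libraries lay above the MM1S libraries for each.

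PSMB5, PSMB6 and PSMB7 were all higher in MM1R, with log2 differences of 0.43, 0.54 and 0.52 (edgeR adjusted p = 0.00347, 2.06e-05 and 9.99e-06). Of the inducible genes only PSME2 passed (log2 difference 0.37, edgeR adjusted p = 0.00187). PSMB8, PSMB9 and PSMB10 had differences of 0.24, 0.22 and −0.03. PSMB8 and PSMB9 passed when only the 2 groups were fitted (edgeR adjusted p = 0.000501 and 0.00793). With TAK-981 the constitutive subunits of MM1R came near the vehicle level of MM1S: the median log2 CPM over the 32 was 6.516 and 6.54 in vehicle-treated MM1S, 6.993 and 7 in vehicle-treated MM1R, and 6.493 and 6.568 in TAK-981-treated MM1R.

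Genes that work with the proteasome were counted from lists made by known role, with earlier results of these data known. Of 20 proteasome-associated genes (shuttles, deubiquitinases, regulators), 4 were higher and 8 lower with TAK-981 in MM1S (20% and 40%, against 25.2% and 23.7% of all genes tested), and 2 higher and 12 lower in MM1R (10% and 60%, against 25.8% and 27.6%). UCHL5, a deubiquitinase bound to the cap through ADRM1, fell in MM1S from 107 and 100 CPM to 68.7 and 53.2 CPM (log2 fold change −0.76, edgeR adjusted p = 6.25e-06). UFD1, a cofactor of the VCP segregase, had the smallest adjusted p of those that fell in MM1R (log2 fold change −0.45, edgeR adjusted p = 4.3e-06). AKIRIN2, which brings assembled proteasomes into the nucleus, rose in both lines (log2 fold change 0.37 in each, edgeR adjusted p = 0.000127 and 0.000137).

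NFE2L1, the factor that drives subunit genes when the proteasome is impaired, was at 227 and 236 CPM with vehicle and 250 and 277 CPM with TAK-981 in MM1S (log2 fold change 0.18, edgeR adjusted p = 0.0189). In MM1R it was at 262 and 268 CPM against 266 and 275 CPM (log2 fold change 0.03, edgeR adjusted p = 0.701). Under combo in MM1S it was lower, at 193 and 207 CPM (log2 fold change −0.21, edgeR adjusted p = 0.0061).

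Of 6 genes for ubiquitin and its activating enzymes 1 fell in MM1S, UBA6 (log2 fold change −0.47), and 2 in MM1R. These shares of 16.7% and 33.3% are near the 23.7% and 27.6% of all genes. UBB, a polyubiquitin gene, had log2 fold changes of 0.22 and −0.09, neither past the test. Of 12 genes of MHC class I presentation and its regulators 11 were higher in each line (91.7%, against 25.2% of all genes in MM1S and 25.8% in MM1R), with median log2 fold changes of 0.67 and 0.87. The exception in MM1S was ERAP1, which trims peptides in the endoplasmic reticulum and was lower (log2 fold change −0.29), and the exception in MM1R was the same gene at −0.02, not called. IRF1, a factor that acts on immunoproteasome promoters, had log2 fold changes of 0.64 and 0.70, and NLRC5, the coactivator of class I genes, of 1.15 and 1.19. TAP1, whose gene adjoins PSMB9 and which carries peptides into the endoplasmic reticulum, had 0.68 and 0.90, TAP2 0.45 and 0.40, and B2M 0.94 and 1.06. All of these values were past the test, and larger than that of PSMB10 or PSME1 in the same line.

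Some members are less certain than the rest. PSMA6 was at 1.24 to 3.06 CPM and PSMC1 at 0.504 to 1.22 CPM, although both encode subunits that every proteasome holds, and their mean counts were 40.62 and 17.69. Of the 50-base stretches of their principal GENCODE transcripts 85.6% and 97.5% also occurred in transcripts of other genes, so the levels of these 2 are not read as expression. Over the 48 genes 31 shared under 5% of such stretches, PSMB8 and PSMB9 none and PSME2 17.3%. The highest shares after PSMA6 and PSMC1 were 51% for PSMA2, 48.4% for PSMA1, 46.9% for PSMD7 and 38.9% for PSMB10. In the table's own coordinates 15 members overlap another gene, among them PSMA6 with KIAA0391 (25109 bases), PSMA2 with C7orf25 (15344 bases), PSMA1 with COPB1, PSMA3 with PSMA3-AS1, PSMB10 with CTRL, PSMC5 with FTSJ3 and PSMD13 with SIRT3 over 124 bases. Without PSMA6 and PSMC1, the constitutive subunits called lower with TAK-981 were 19 of 30 in MM1S and 30 of 30 in MM1R.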

How the data were processed

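RNA-seq of ribosomal RNA-depleted total RNA was analysed from the table of whole-number read counts per gene that the authors deposited, as it stands. The submitters' processing notes name hg19, bcl2fastq 2.18.0.12, STAR 2.6.0, HTSeq 0.6.0 and edgeR 3.28.1. The annotation and the use of strand in counting are not given in the sources used here. Groups were taken from the sample labels. The 48 genes and all lists were chosen with earlier results of these data known.

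Genes were filtered with filterByExpr (14215 kept), scaled with TMM and fitted with 1 term per group over 16 libraries (8 residual degrees of freedom) by the robust quasi-likelihood F test of edgeR 4.0.16 in R 4.3.3. Changed means a Benjamini-Hochberg adjusted p under 0.05 over all genes tested. For genes given by library, up to 3 higher and 3 lower members with the smallest adjusted p per comparison were taken, beside the inducible genes and PSMB5, PSMB6 and PSMB7. Any further member was picked for mention with its values in view. Alternatives were RLE, library size only, no filter, only the groups compared, DESeq2 1.42.0, a replicate block, an added fold threshold, and each library left out. Shared 50-base stretches were counted in GENCODE 29 transcripts. Values of some genes outside the 48 are not reported here.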

Additional observations from a re-analysis of the deposited data

Results flagged for a closer look

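The response to Dex differed between MM1R and MM1S, by the interaction term of edgeR at an adjusted p under 0.05, in 10 of the 48 genes. Of all genes tested 15% had a higher value in MM1R and 13.1% a lower one, and the members were near or below those shares. On the log2 scale the difference (MM1R minus MM1S) was 0.324 for PSMA1, 0.307 for PSMA2, 0.415 for PSMA3, 0.33 for PSMB6, 0.29 for PSMC2, 0.385 for PSMD1, 0.289 for PSMD11, 0.301 for PSMD14 and 0.316 for POMP. It was −0.289 for PSME3, the one gene with the opposite sign, whose own Dex effect was 0.19 in MM1S and −0.10 in MM1R. With any 1 library left out between 2 and 11 genes passed.

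The effect of Dex on top of TAK-981 differed from its effect alone in MM1S in 2 genes, PSMD13 (−0.359) and PSME3 (−0.283). Of all genes tested 9.48% were called lower and 5.47% higher, so the members were below the share of all genes. PSMD13 had adjusted p = 0.0887 with library size only and 0.148 when only the groups compared were fitted, and PSME3 had 0.111 and 0.161.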

How the results depend on the processing

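Counts of changed genes were within 1.5 times the main count with RLE, library size only, no filter, DESeq2 and only the groups compared, except as follows. For the interaction of TAK-981 with Dex in MM1S the count was 1 with RLE, 0 with library size only, 7 with no filter and 0 with only the groups compared, against 2. For the difference between lines in the TAK-981 effect it was 4 with no filter, against 0. For combo against TAK-981 in MM1S it was 15 with only the groups compared, against 29. Over all genes that setting called 1499 higher and 1869 lower, against 2063 and 2927 in the main fit. With a change of 1 or more on the log2 scale also required, 0 genes were left in every comparison that had any, except combo against vehicle in MM1S, with 1. Counted over the 32 constitutive subunits alone there were 19 for TAK-981 in MM1S and 1 for the interaction in MM1S. Over the 5 inducible genes alone, both directions together, there were 4 and 2 for TAK-981 in MM1S and MM1R. The 4 were PSMB8, PSMB9 and PSME1 higher and PSME2 lower, and the 2 were PSMB8 and PSMB9, higher. Shares called over the whole table tested were 25.2% up and 23.7% down in MM1S, and 25.8% and 27.6% in MM1R. There was 1 for Dex in MM1S, 2 and 2 for combo, and 2 and 3 for combo against Dex. In MM1S the 2 for combo, and the 2 for combo against Dex, were PSMB9 higher and PSME2 lower. There were 3 for combo against TAK-981 in MM1S and 1 between vehicle-treated lines. There were 0 for the line difference in Dex effect and 0 for the interaction in MM1S. None of these counts was tested against a share.

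With each library left out in turn the count ran from 18 to 26 for TAK-981 in MM1S, from 37 to 39 in MM1R, from 14 to 22 for Dex in MM1S, from 33 to 36 and from 32 to 37 for combo in MM1S and MM1R, from 27 to 36 and from 25 to 33 for combo against Dex, from 21 to 30 for combo against TAK-981 in MM1S, from 30 to 33 between vehicle-treated lines, from 0 to 10 for the line difference in TAK-981 effect, from 2 to 11 for that in Dex effect, from 0 to 14 for the interaction in MM1S, and from 0 to 0 for Dex, combo against TAK-981 and the interaction in MM1R. The lone library of a group was then assumed to vary like the other groups. Several libraries moved counts by over 1.5 times. For TAK-981 in MM1S it was the first vehicle library (18), and for combo against Dex in MM1R the second Dex library (25). For the line difference in TAK-981 effect it was the first TAK-981 library of MM1S (10). For that in Dex effect they were the MM1S vehicle libraries (2 and 5), its first Dex library (5), the MM1R vehicle libraries (3 and 4) and its second Dex library (4). For the interaction in MM1S it was each of the 8 MM1S libraries: 14 without the first TAK-981, 12 without the first Dex, 1 without the second combo and 0 without any other. The values of PSMB10 changed sign with 1 library left out: from −0.0521 to 0.323 and from −0.0551 to 0.126 for TAK-981 in MM1S and MM1R, from −0.0736 to 0.0313 and from −0.00632 to 0.174 for combo, from −0.344 to 0.031 for combo against TAK-981 in MM1S, and from −0.124 to 0.057 between lines. PSME1 under combo in MM1S ran from −0.0521 to 0.0202.

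The log2 ratios ran from 0.649 to 0.709 for PSMB8 to PSMB5, from 1.07 to 1.14 for PSMB9 to PSMB6 and from 0.42 to 0.535 for PSMB10 to PSMB7. In MM1S alone they were 0.524, 0.864 and 0.388 and in MM1R alone 0.835, 1.35 and 0.567, each with an exact permutation p of 0.0556, the smallest possible.

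Replicate numbers were shared between groups with nothing to say that they mark a batch. Deviations of same-numbered libraries correlated between 0.152 and 0.618 in MM1S, between 0.0719 and 0.252 in MM1R, and between 0.057 and 0.502 across lines, highest for the Dex groups of both. With the replicate block 12 members passed for the line difference in TAK-981 effect, where 1114 of the 14215 genes tested were higher and 947 lower. For that in Dex effect 16 members passed, where 2694 of all genes tested were higher and 2521 lower. For the interaction in MM1S 9 members passed, where 1383 of all genes tested were higher and 2196 lower. These member counts were not tested against the counts over all genes. The other counts stayed within 1.5 times. The block also turned PSMB10 between lines to 0.0127. Mean counts of 40.62 for PSMA6 and 17.69 for PSMC1 limit the precision of both, and 2 libraries a group limit that of all values.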
